A study of Mus musculus with 4 samples.

Results

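The genes whose products take up glucose and carry it to the split of its carbon chain were followed: the glucose transporter genes Slc2a1 and Slc2a3, the hexokinase genes Hk1 and Hk2, the glucose-phosphate isomerase gene Gpi1, the phosphofructokinase genes Pfkl, Pfkm and Pfkp, and the aldolase genes Aldoa and Aldoc. They were chosen by name, with earlier results of these data known. All 10 were found among the 24391 gene symbols and were among the 16001 genes that passed the count filter. RNA was sequenced from 4 lung tumour samples of Mus musculus. The 2 K-Ras samples came from mice with K-RasLSL-G12D, a mutant allele kept silent by a lox-stop-lox cassette until Cre removes it, and the 2 K-Ras Mll4-/- samples from mice that carried the same allele together with Mll4fl/fl, a floxed Mll4 gene (now Kmt2d, a histone methyltransferase that acts mainly at enhancers). Cells bearing CD45, the common leukocyte antigen, had been depleted, and red blood cells lysed, in the digested tissue of all 4 before RNA was taken. The way Cre was delivered, the cells it reached, the age of the mice, and whether replicates came from separate animals are not given in the sources used here, so p-values measure only the spread between these samples.

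Glucose enters most cells through facilitative transporters. Hexokinase then traps it as glucose 6-phosphate, the isomerase turns that into fructose 6-phosphate, phosphofructokinase adds a further phosphate at the committed step, and aldolase splits the product into a pair of triose phosphates. Except for the isomerase, each step is served by several genes whose products differ in tissue distribution and regulation, and tumours commonly express more of Slc2a1 and Hk2 than the tissue they arise from.

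Reads assigned to genes numbered 26683033 to 36677987 per sample. Depth did not limit the members, whose smallest count was 246 reads. The lung epithelial transcript Sftpc was at 5746 to 10743 CPM (read counts brought to a common library size with the TMM factors of edgeR) and the lung regulator Nkx2-1 at 45.7 to 64.9 CPM, and Ptprc, the gene of CD45, was still at 142.8 to 274 CPM. The targeted gene, Kmt2d, was at 395 and 526 CPM in K-Ras and at 367 and 317 CPM in K-Ras Mll4-/- samples, and its difference (K-Ras Mll4-/- minus K-Ras) was -0.43 in log2 units, with an SE of 0.21 and an adjusted p of 0.302 in edgeR. A total per gene does not show whether single exons were removed, so the deletion is taken from the labels. At an unadjusted edgeR p under 0.05, 10.4% of all genes tested were lower in the K-Ras Mll4-/- samples. So were 6 of 8 endothelial markers and 2 of 7 fibroblast markers in those samples. The 8 endothelial markers summed to 3438 and 4365 CPM there against 6689 and 6957 CPM, and the 7 fibroblast markers to 838 and 853 CPM against 1124 and 2467 CPM. Club and ciliated cell markers stood apart in K-Ras replicate 2, at 4172 CPM in sum against 685 to 862 CPM in the other samples. All 8 of these markers had negative log2 fold changes, and 4 were lower at an unadjusted edgeR p under 0.05. For 5 of them both K-Ras Mll4-/- samples lay below both K-Ras samples, an order shown by 28.5% of all genes tested. In such bulk samples, fewer cells of a type and less RNA per cell cannot be told apart, and the part of these markers in the results that follow was not tested.

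Transcripts of every step of upper glycolysis were more abundant in both K-Ras Mll4-/- samples than in both K-Ras samples when summed over isoforms, and the most abundant isoform of each step had the same order. The members' median log2 fold change was 0.86, against -0.01 over all genes tested, and 9 of the 10 had a positive value. Both K-Ras Mll4-/- samples lay above both K-Ras samples for 8 members, an order that 29.9% of all genes tested showed, and below both for 1, Slc2a3, an order shown by 28.5% of genes. Together the 10 transcripts took 0.276% and 0.328% of the gene reads in the K-Ras Mll4-/- samples, against 0.173% and 0.161% in K-Ras tumours.

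With the quasi-likelihood test of edgeR, 0 members passed an adjusted p of 0.05, which 0.0375% of all genes passed. A fit with a replicate block also called 0 members, against 1.36% of genes. Without adjustment, 7 members had an edgeR p under 0.05 and were higher, a direction and threshold met by 11.4% of genes, and 0 members were lower at that threshold, met by 10.4% of genes. Without K-Ras Mll4-/- replicate 2, 4 members were higher at that threshold, which 3.76% of genes then met in that direction. DESeq2 called 6 members higher, namely Slc2a1, Hk2, Gpi1, Pfkl, Pfkp and Aldoa, where it called 5.02% of all genes higher, and 0 lower, where it called 4.98% of genes. The edgeR likelihood ratio test also called 6 higher, where it called 4.85% of all genes higher. The call for a single gene therefore rested on the test used, with 2 samples a group. Exons of Slc2a1, Gpi1, Pfkm, Pfkp and Aldoa overlap a gene on the opposite strand, and since the strand setting of the counting is not given in the sources used here, reads of those neighbours may be part of their values.

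**Figure D1:**
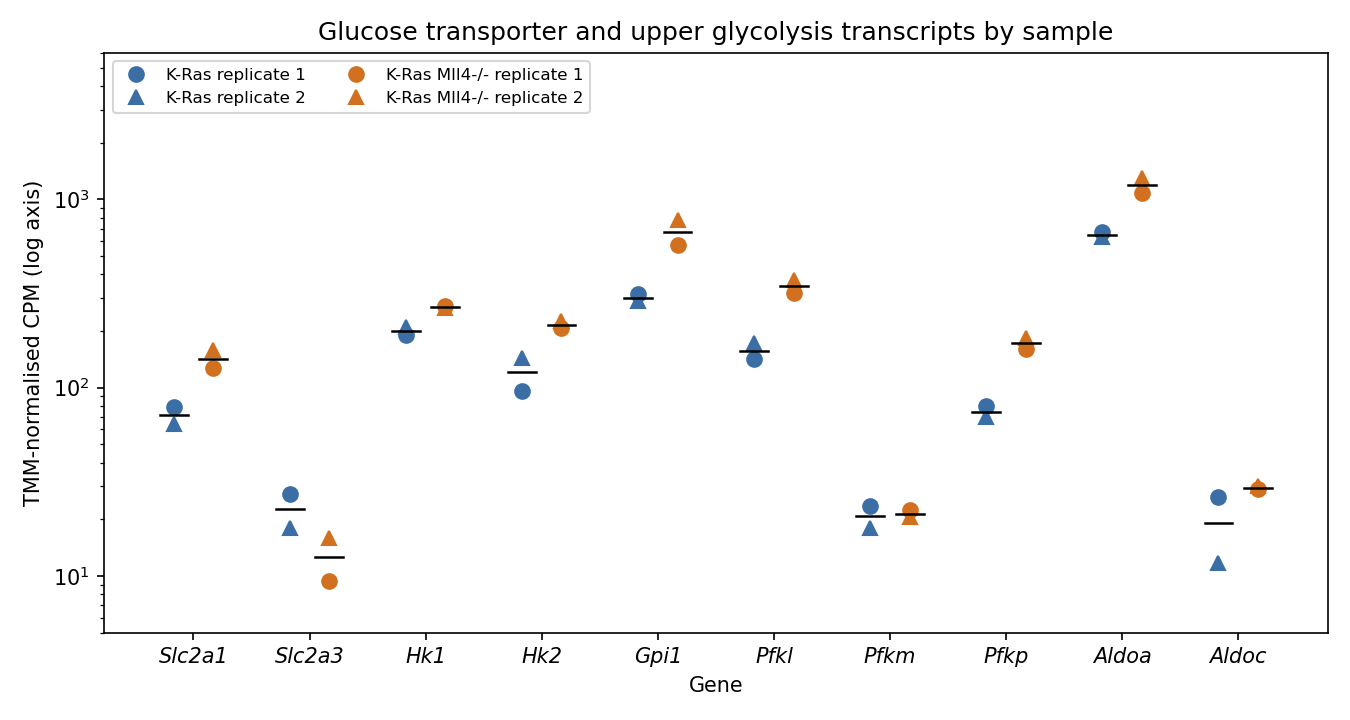
TMM-normalised CPM of the 10 transcripts in each of the 4 samples on a log axis. Blue points are the K-Ras samples and orange points the K-Ras Mll4-/- samples (circle, replicate 1; triangle, replicate 2), and bars are group means. The orange points lie above the blue ones for 8 genes, below them for Slc2a3, and among them for Pfkm.

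**Figure D2:**
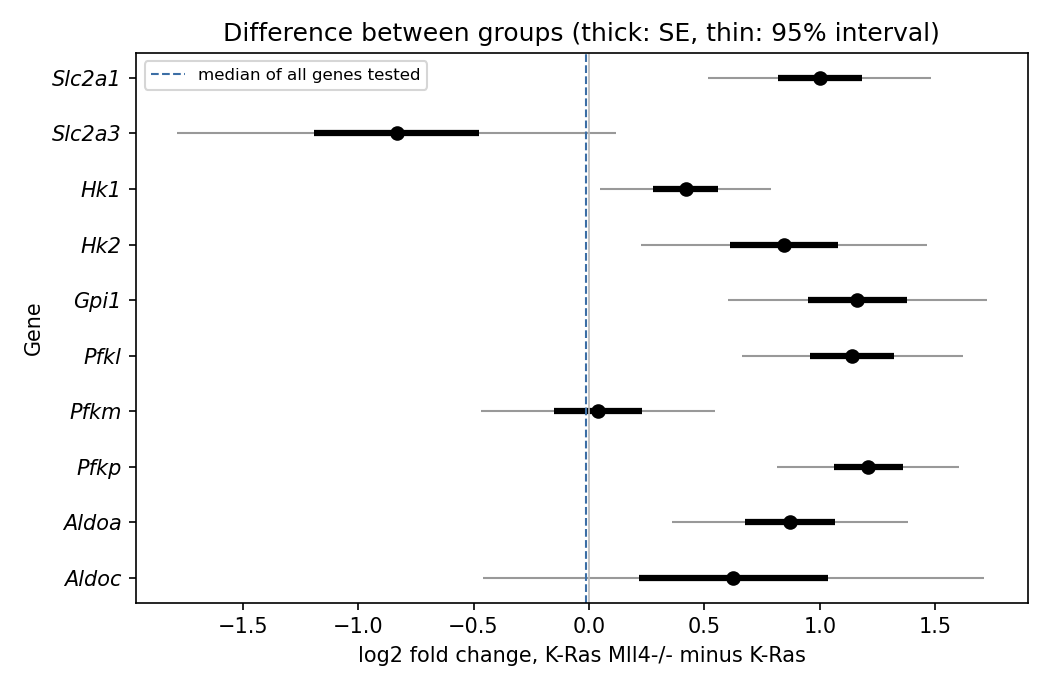
Log2 fold change (K-Ras Mll4-/- minus K-Ras) of each transcript from the edgeR fit, with its SE (thick bars) and 95% interval (thin bars). The intervals of Slc2a3, Pfkm and Aldoc include 0, and the dashed line is the median of all genes tested, -0.01.

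The transporters differed in opposite directions. Slc2a1 encodes GLUT1, the basal glucose transporter of most cells. It was at 127.6 and 158.2 CPM in the K-Ras Mll4-/- pair, whereas K-Ras tumours gave 78.7 and 64.2 CPM. The groups did not overlap, and the difference was 2.00-fold (log2 fold change 1.00, SE 0.18, edgeR adjusted p = 0.147). Slc2a3 encodes GLUT3, a transporter of high affinity best known from neurons, and was scarce. It was at 9.37 and 15.9 CPM in K-Ras Mll4-/- and at 27.2 and 17.9 CPM in K-Ras tumours. Here the K-Ras samples were the higher ones, by little at the nearest pair, and the log2 fold change of -0.83 had a 95% interval of -1.79 to 0.12 (SE 0.36, edgeR adjusted p = 0.264). It was -0.50 without K-Ras Mll4-/- replicate 1, -0.50 without K-Ras replicate 1 and -1.28 without K-Ras Mll4-/- replicate 2.

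Slc2a3 is also transcribed in platelets and myeloid cells. Of the 5 platelet markers listed, all were tested and had negative log2 fold changes. At an edgeR p under 0.05, 1 of them was lower, where 10.4% of all genes tested were. They summed to 31.7 and 45.8 CPM in K-Ras Mll4-/- and to 73.7 and 41.8 CPM in K-Ras samples, so the groups overlapped in sum. Both K-Ras Mll4-/- samples lay below both K-Ras samples for 2 of the 5, an order shown by 28.5% of genes. The platelet integrin transcript Itga2b, 1 of these 2, was at 15.2 and 21.3 CPM in K-Ras Mll4-/- and at 38.7 and 25.0 CPM in K-Ras samples, the same order of samples as Slc2a3. The 11 myeloid markers tested summed to 8359 and 3862 CPM in K-Ras Mll4-/- against 11189 and 4908 CPM in K-Ras samples, so their groups overlapped. The part of either cell type in the Slc2a3 values was not tested.

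Both hexokinase transcripts were more abundant in the K-Ras Mll4-/- samples, Hk2 by the larger factor. Hk1 encodes the widely expressed hexokinase and stood at 272 and 264 CPM in the K-Ras Mll4-/- samples against 190 and 211 CPM in K-Ras tumours. The difference was 1.34-fold (log2 fold change 0.42, SE 0.14, edgeR adjusted p = 0.205). Hk2 encodes the inducible hexokinase of muscle, fat and many tumours. It was at 207 and 225 CPM in K-Ras Mll4-/- samples and at 96.4 and 144.5 CPM in K-Ras samples. Its replicates were close together in the K-Ras Mll4-/- group and wide apart in the K-Ras group, without overlap between the groups (log2 fold change 0.84, SE 0.23, edgeR adjusted p = 0.179).

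Gpi1, the glucose-phosphate isomerase gene, was at 574 and 775 CPM in the K-Ras Mll4-/- samples and at 313 and 289 CPM in the K-Ras samples. This was a 2.24-fold difference without overlap, with the wider spread in the K-Ras Mll4-/- pair (log2 fold change 1.16, SE 0.21, edgeR adjusted p = 0.147).

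Of the phosphofructokinase genes, the liver-type and platelet-type genes were both higher and the muscle-type gene was level. Pfkl, the liver-type gene, was at 320 and 373 CPM in K-Ras Mll4-/- samples and at 141 and 173 CPM in K-Ras samples (log2 fold change 1.14, SE 0.18, edgeR adjusted p = 0.144). Pfkp, the platelet-type gene, was at 160.6 and 183.8 CPM against 79.5 and 69.5 CPM. It had the smallest p and the largest log2 fold change of the 10 members (1.21, SE 0.15, edgeR adjusted p = 0.128). Pfkm, the muscle-type gene, was at 22.3 and 20.5 CPM in K-Ras Mll4-/- samples and at 23.5 and 18.1 CPM in K-Ras samples. Its groups overlapped, and the log2 fold change of 0.04 had a 95% interval of -0.47 to 0.55 and changed sign when libraries were scaled otherwise, to -0.019 by total counts and -0.021 by upper quartiles (edgeR adjusted p = 0.923). The 9 striated muscle markers summed to 200.2 and 379.8 CPM in K-Ras Mll4-/- against 132.6 and 162.9 CPM in K-Ras samples, nearly all of it from Myh7, a cardiac and slow-muscle myosin (193 and 370 CPM against 124 and 150 CPM). Of the 7 tested, 1 was higher and 1 lower at an unadjusted edgeR p under 0.05, where 11.4% and 10.4% of all genes tested were. The defining transcripts Ckm and Mb were near 0 in all 4 samples, at 0.114 to 0.248 CPM and 0.0381 to 0.443 CPM.

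Aldoa, the ubiquitous aldolase, was the most abundant member, at 1080 and 1303 CPM in K-Ras Mll4-/- samples and at 672 and 630 CPM in K-Ras samples. The groups did not overlap (1.83-fold, log2 fold change 0.87, SE 0.19, edgeR adjusted p = 0.157). Aldoc, the aldolase best known from brain, was at 28.8 and 29.9 CPM in K-Ras Mll4-/- samples and at 26.3 and 11.7 CPM in K-Ras samples. The K-Ras Mll4-/- samples were the higher ones, but by little over K-Ras replicate 1, and the log2 fold change of 0.63 had a 95% interval of -0.46 to 1.71 (SE 0.41, edgeR adjusted p = 0.417). Without K-Ras replicate 1 it was 1.33, and without K-Ras replicate 2 it was 0.14.

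Levels of different genes were compared as CPM per kilobase of exon. In the K-Ras samples Aldoa led, at 246 to 262, followed by Gpi1 at 100 to 109. Hk1 at 39.2 to 43.4 and Pfkl at 37.9 to 46.4 overlapped each other, and so did Slc2a1 at 19.7 to 24.2, Hk2 at 17.2 to 25.7 and, with Hk2 only, Pfkp at 16.2 to 18.5. Aldoc, Pfkm and Slc2a3 formed a low group between 3.94 and 8.84 CPM per kilobase, within which their ranges overlapped. In the K-Ras Mll4-/- samples Aldoa was at 421 to 508 and Gpi1 at 199 to 269 CPM per kilobase. Pfkl, at 85.8 to 100.02, was there above Hk1, at 54.4 to 56.02, so the overlap of that pair in K-Ras samples was gone. Slc2a1 (39.1 to 48.5), Pfkp (37.4 to 42.8) and Hk2 (36.9 to 40.1) followed with overlapping neighbours. The low group was spread in the order Aldoc (9.67 to 10.04), Pfkm (6.83 to 7.43) and Slc2a3 (2.37 to 4.02 CPM per kilobase), without overlap.

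Which isoform carries a step was then asked through ratios within each sample, which do not depend on the scaling between libraries. The isoform pairs compared were 6, and 2 samples against 2 cannot give an exact two-sided permutation p below 0.333. The log2 ratio of Slc2a3 to Slc2a1 reads was -3.77 and -3.31 in the K-Ras Mll4-/- pair, whereas K-Ras tumours gave -1.53 and -1.84. The groups were far apart, by -1.85 on the log2 scale, or 3.61-fold (exact permutation p = 0.333, Benjamini-Hochberg adjusted over 6 pairs 0.5). This was the largest shift of the 6. Per kilobase, Slc2a3 made up 6.67% ± 1.38 of the reads of the 2 transporters in K-Ras Mll4-/- and 20.4% ± 2.44 in K-Ras samples (SD, n = 2 each).

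For the hexokinases the log2 ratio of Hk2 to Hk1 was -0.39 and -0.23 in K-Ras Mll4-/- samples and -0.98 and -0.54 in K-Ras samples. The groups did not overlap, though the gap between the nearest samples was small beside the spread of the K-Ras pair, and the difference was 0.45 (exact permutation p = 0.333, adjusted 0.5). Hk2 accounted for 41.1% ± 1.88 of hexokinase reads per kilobase in K-Ras Mll4-/- and 33.8% ± 4.78 in K-Ras samples (SD, n = 2 each), so Hk1 was the larger part in all 4 samples.

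Among the phosphofructokinase genes, Pfkm was a smaller part beside either other gene in the K-Ras Mll4-/- samples. The log2 ratio of Pfkm to Pfkl was -3.84 and -4.19 in K-Ras Mll4-/- samples and -2.58 and -3.26 in K-Ras samples, a difference of -1.09 (exact permutation p = 0.333, adjusted 0.5). That of Pfkp to Pfkm was 2.85 and 3.17 against 1.76 and 1.94, a difference of 1.16 (exact permutation p = 0.333, adjusted 0.5). By contrast the ratio of Pfkp to Pfkl overlapped between the groups, with -0.99 and -1.02 in K-Ras Mll4-/- and -0.83 and -1.32 in K-Ras samples (difference 0.06, exact permutation p = 1). Pfkm made up 5.13% ± 0.796 of phosphofructokinase reads per kilobase in K-Ras Mll4-/- and 10.5% ± 2.44 in K-Ras samples, while Pfkl held 66.3% ± 0.825 and 63.3% ± 6.14 (SD, n = 2 each).

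The proportion of the aldolases differed by less than the spread of the K-Ras pair. The log2 ratio of Aldoc to Aldoa was -5.23 and -5.45 in K-Ras Mll4-/- samples and -4.67 and -5.75 in K-Ras samples (difference -0.13, exact permutation p = 1). The K-Ras samples enclosed the others, and Aldoa made up 96.7% to 98.4% of aldolase reads per kilobase in every sample. Summed over isoforms, reads per kilobase were 1.70-fold higher in K-Ras Mll4-/- samples for the 2 transporters, 1.49-fold for the hexokinases, 2.11-fold for the phosphofructokinases and 1.82-fold for the aldolases, beside 2.24-fold for the isomerase. The groups did not overlap at any of these 5 steps.

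**Figure D3:**
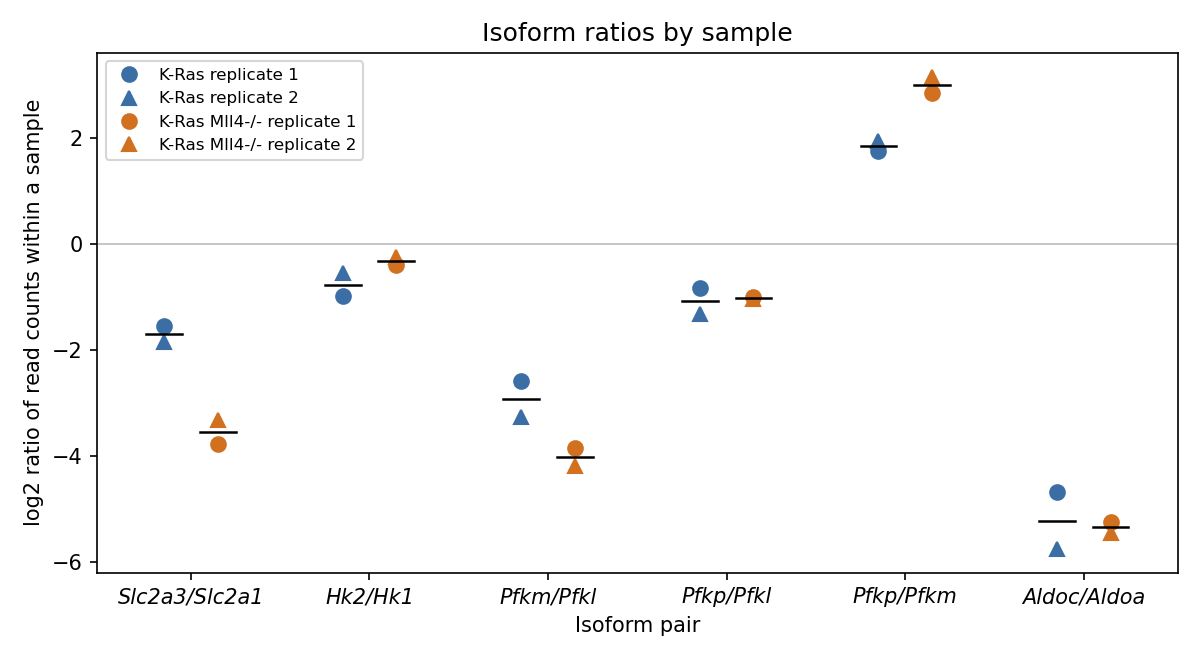
Log2 ratio of the read counts of 2 isoforms within each sample, for 6 pairs, with group means as bars. Blue points are K-Ras and orange points K-Ras Mll4-/- samples. The groups separate for Slc2a3/Slc2a1, Hk2/Hk1, Pfkm/Pfkl and Pfkp/Pfkm and overlap for Pfkp/Pfkl and Aldoc/Aldoa.

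**Figure D4:**
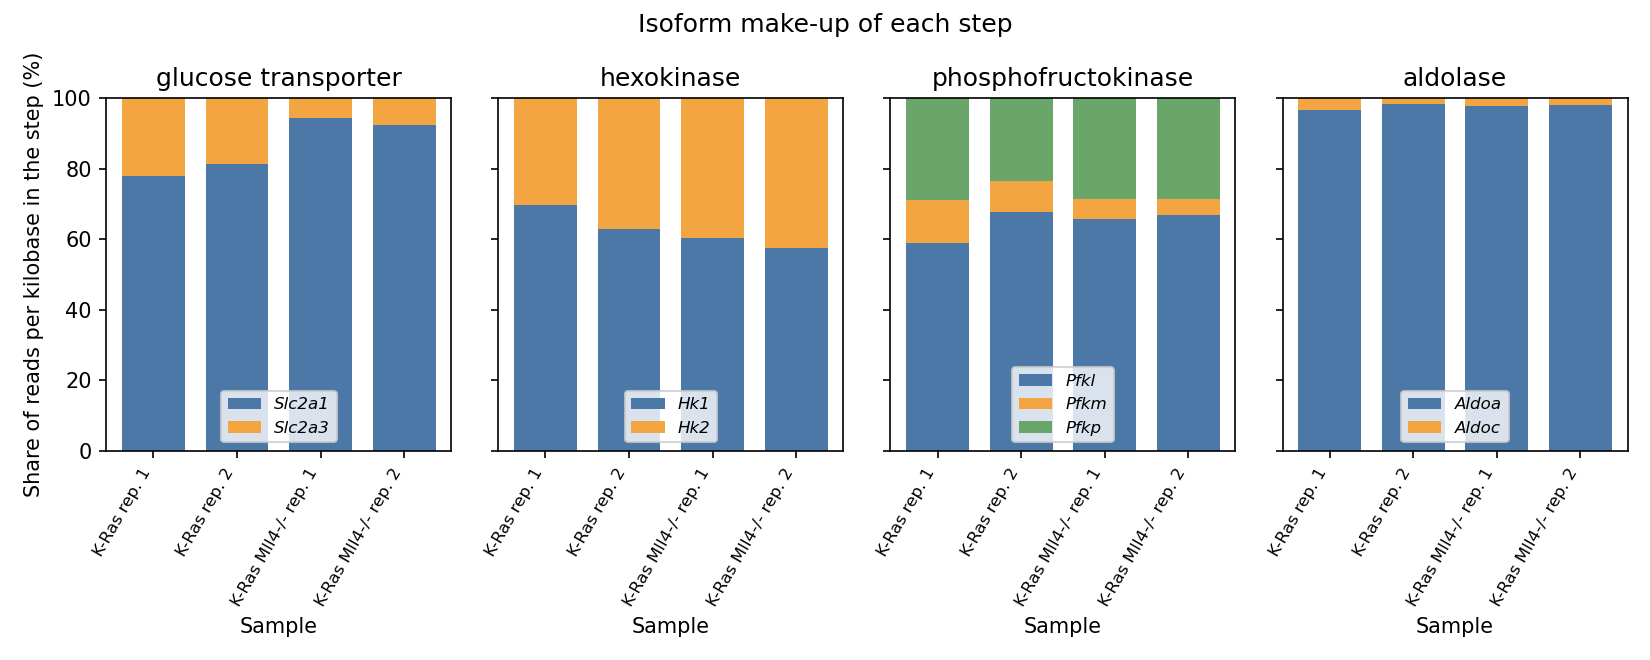
Share of each isoform in the reads per kilobase of its step, in percent, for each of the 4 samples. The Slc2a3 part of the transporter bars and the Pfkm part of the phosphofructokinase bars are smaller in the K-Ras Mll4-/- samples, with mean shares of 6.67% against 20.4% and of 5.13% against 10.5%.

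Because several members were higher together, their promoters were read for the letters of the hypoxia response core, ACGTG or GCGTG, on both strands. HIF transcription factors, which respond to low oxygen, are known to bind such letters in glycolytic genes. RefSeq promoter windows of GRCm38.p6, from 250 bases before to 50 bases after a start, were matched for 9 members; Slc2a3 was not matched. At least 1 match was found in 8 of these 9 members and in 12 of their 16 windows (75%, some of which overlap), against 43.8% of all 32851 windows. Both strings of letters contain CG, and the windows compared were not matched for base content. The stretches below hold the match nearest to and before a start, with the match in capitals. They are shown for 5 of the 6 genes that DESeq2 called, and for Pfkm, whose groups overlapped. Hk1 and Aldoc, which DESeq2 did not call, also had matches, which are not printed.
Slc2a1: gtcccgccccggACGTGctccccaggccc
Hk2: aatgagcacatcCACGTcactgtccgggg
Pfkl: atttgtagactgGCGTGcgctccgccttt
Pfkp: cgctcgggcgggGCGTGggcggctcctgc
Aldoa: tgtggctcgagtCACGTcctagcggggcg
Pfkm: attaagtatgccACGTGaagtaagtaatt
In Slc2a1 (chr4:119108697-119108725, plus strand) the match began 36 bases before the start, and in Hk2 (chr6:82774490-82774518, minus strand) 52 bases before it. In Pfkl (chr10:78009890-78009918, minus strand) it began 99 bases and in Pfkp (chr13:6648778-6648806, minus strand) 23 bases before the start. In Aldoa (chr7:126799364-126799392, minus strand) it lay 126 bases before the second of 3 listed starts. CACGT is ACGTG read on the other strand. In the GENCODE M21 annotation the Slc2a1 stretch overlaps an exon of a protein-coding Slc2a1 transcript, so it may itself be transcribed. The other stretches printed overlap no annotated exon. The Pfkm match (chr15:98092442-98092470, plus strand), 135 bases before the first of 4 starts, lies within the palindrome CACGTG, which 7.15% of all windows hold and no other member's windows did. Gpi1, which was 2.24-fold higher, had no match in its window. Matches thus occurred both in genes that were higher and in one whose groups overlapped, and these letters alone are a description of the windows.

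The other genes of the glucose pathway were read from lists chosen by function, also with earlier results of these data known. None of the genes in these lists was called by the edgeR quasi-likelihood test without a replicate block. Of 13 genes tested of lower glycolysis and lactate handling, 8 were higher with an edgeR p under 0.05 and 0 lower, with a median log2 fold change of 1.16. Among all genes tested, 11.4% were higher and 10.4% lower at that threshold. DESeq2 called 8 higher and 0 lower, against 5.02% and 4.98% of all genes. At an unadjusted p under 0.05, the count of lower genes was 1 in place of 0 under some alternatives. These were DESeq2, the edgeR likelihood ratio test, and total-count or upper-quartile scaling. Pgk1, which makes the first ATP of glycolysis, had the largest difference (133 and 167 CPM in K-Ras Mll4-/-, 40.2 and 31.9 CPM in K-Ras samples, log2 fold change 2.06, SE 0.20, edgeR adjusted p = 0.116). Tpi1, the triose isomerase directly after aldolase, was at 514 and 657 CPM against 158 and 159 CPM. The 4 genes tested that had negative values, chosen for mention after these were seen, were Pgam2, Eno2, Eno3 and Ldhb. Their log2 fold changes lay between -0.99 and -0.44 and their groups did not overlap, an order shown by 28.5% of all genes tested.

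The remaining transporters, hexokinases and aldolase, which are not members, showed the opposite direction. All 14 tested had negative log2 fold changes (median -0.75). Both K-Ras Mll4-/- samples lay below both K-Ras samples for 11, an order shown by 28.5% of all genes tested. At an edgeR p under 0.05, where 10.4% of all genes tested were lower, 4 of the 14 were lower. That count was 2 without K-Ras Mll4-/- replicate 1 and 1 without replicate 2. Hkdc1, a hexokinase-like gene of epithelia, was at 18.3 and 9.27 CPM in K-Ras Mll4-/- and at 37.04 and 37.4 CPM in K-Ras samples; the difference was -1.44 in log2 units, with an SE of 0.35 and an adjusted p of 0.168 in edgeR. Slc2a12, a further facilitative transporter, was at 1.90 and 2.51 CPM against 4.22 and 12.3 CPM. Slc2a6, a transporter of immune cells, was at 3.58 and 2.67 CPM against 7.55 and 6.56 CPM. Slc2a12 was highest in K-Ras replicate 2, the sample with the high club and ciliated cell markers, whereas Hkdc1 and Slc2a6 were similar in both K-Ras samples. Per kilobase, Hkdc1, Slc2a12 and Slc2a6 were each below Hk1, Hk2 and Slc2a1 in every sample. Hk3, the myeloid hexokinase, was at 10.05 and 5.21 CPM in K-Ras Mll4-/- and 23.9 and 6.22 CPM in K-Ras samples, and its groups overlapped.

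Of 11 regulators of uptake and of phosphofructokinase tested, 8 had negative and 3 positive log2 fold changes, with a median of -0.33. At an edgeR p under 0.05, 1 was higher and 2 lower, near the 11.4% and 10.4% of all genes tested. Tigar, which lowers the activator fructose 2,6-bisphosphate, was at 23.1 and 29.6 CPM in K-Ras Mll4-/- and at 17.2 and 15.2 CPM in K-Ras samples (log2 fold change 0.70, SE 0.19, edgeR adjusted p = 0.177). Pfkfb4, one of the enzymes that make that activator, was at 45.3 and 33.3 CPM against 56.03 and 71.4 CPM (log2 fold change -0.70, SE 0.22, edgeR adjusted p = 0.197). Mlxipl, a transcription factor that responds to glucose, was at 0.761 and 0.434 CPM against 2.48 and 2.88 CPM (log2 fold change -2.17, SE 0.44, edgeR adjusted p = 0.153). Each of these 3 separated the groups without overlap. The counts moved with single samples: 0 were higher without K-Ras Mll4-/- replicate 2 or K-Ras replicate 2, and 1 was lower without K-Ras Mll4-/- replicate 2 but 5 without K-Ras replicate 1.

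**Figure D5:**
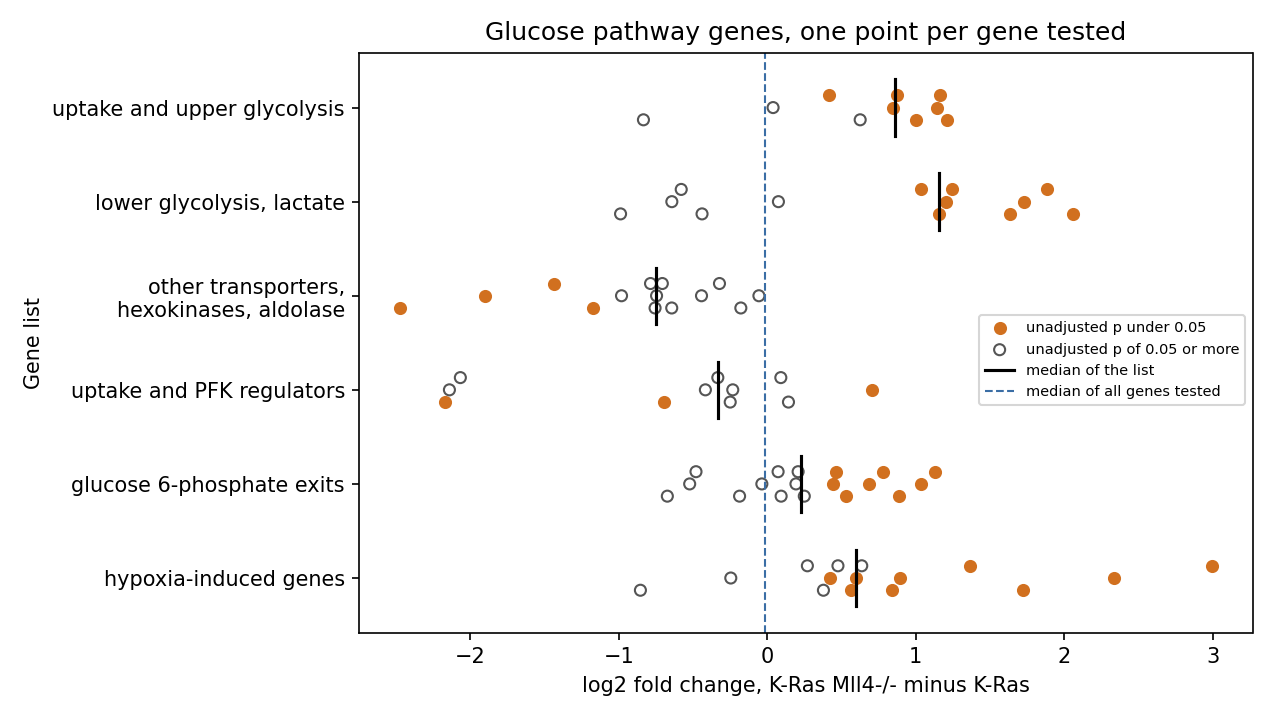
Log2 fold change (K-Ras Mll4-/- minus K-Ras) of each tested gene in 6 lists of the glucose pathway, with the list median as a black bar and the median of all genes tested as a dashed line. Filled points have an unadjusted edgeR p under 0.05. The medians are 0.86 for the members, 1.16 for lower glycolysis and -0.75 for the other transporters, hexokinases and aldolase.

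The genes whose pattern over the 4 samples was nearest to that of a member were found by Euclidean distance between log2 CPM values centred on each gene's mean, among 10208 other genes with a mean of at least 10 CPM. Near to Slc2a1 were Ncapd2 (distance 0.0554) and Rps2 (0.0662). Nearest to Hk2 were Phlda1 (0.0803), Pkp2 (0.0942) and Elf5 (0.110). Nearest to Pfkp were Cmas (0.0830), Camk2d (0.0960) and Ccna2 (0.112). All of these named genes were higher in the K-Ras Mll4-/- samples, with log2 fold changes of at least 0.77, and the distances rest on 4 samples in 2 groups.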

How the data were processed

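The deposited values were raw read counts per gene symbol, 1 file per sample. Per the submitters' processing notes, CASAVA 1.4, STAR, HTSeq and the mm9 build were used; settings, strand and annotation are not given in the sources used here. The tally of alignments to more than 1 place was 31.5% to 36.65% of gene counts and tallies together. Whether a read entered it once or once per place is not given. This tally and 4 further ones were kept apart from genes, so near-identical copies can be undercounted. In GENCODE M21, exons of Slc2a1, Gpi1, Pfkm, Pfkp and Aldoa overlap a gene on the opposite strand, whose reads could be mixed in.

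Groups came from sample titles. Counts were fitted with edgeR 4.0.16 (R 4.3.3; filterByExpr, TMM, robust quasi-likelihood test, Benjamini-Hochberg adjustment over 16001 genes, threshold 0.05); the scripts were tested on simulated data. SE is the log2 fold change divided by the root of F. Lengths are unions of exons in GENCODE M21 (GRCm38), not the counting annotation. Ratios used counts plus 0.5. Alternatives were DESeq2 1.42.0, limma-voom 3.58.1, the likelihood ratio test, other scalings and filters, a replicate block, and leaving out samples. Replicates differed far beyond sampling noise (chi-square per gene 47.3 and 121.7). The members and lists were chosen with earlier results of these data known. Named beyond the members were Kmt2d, up to 4 genes per list with the largest change at an unadjusted p under 0.05, the 3 nearest genes of 3 members, and markers beside a result. Values of 2 genes that this rule would name are not reported here. Hk3, Myh7, Ddit4, the overlapping hypoxia transcripts, Hif1a and the lower genes of lower glycolysis were added after their values were seen.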

Additional observations from a re-analysis of the deposited data

How the results depend on the processing

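Against 0 members called in the reported fit, DESeq2 and the edgeR likelihood ratio test each called 6. limma-voom, the other scalings and filters and the replicate block gave 0. Members higher at an unadjusted p under 0.05 numbered 7, and 4 to 7 with single samples left out; the 4 came without K-Ras Mll4-/- replicate 2. Members lower at that threshold numbered 0 as reported, 1 with DESeq2, 1 with the likelihood ratio test, and 0 to 1 with single samples left out. Where 1 sample was left alone in a group, its spread was assumed to be that of the other group.

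The log2 fold change of Pfkm was -0.021 with upper-quartile scaling and -0.019 with total counts, and ranged from -0.15 to 0.25 with single samples left out (-0.017 without K-Ras Mll4-/- replicate 1, -0.15 without K-Ras replicate 2). The other 9 members kept their direction under every alternative run. The differences in isoform ratio kept their sign with single samples left out, except Pfkp/Pfkl (-0.18 to 0.31) and Aldoc/Aldoa (-0.66 to 0.41), and ranged from -2.08 to -1.63 for Slc2a3/Slc2a1 and from 0.23 to 0.67 for Hk2/Hk1.

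The titles number the replicates 1 and 2 in both groups, but nothing says what a number shares. Deviations of same-numbered samples correlated at 0.21 across genes. With the replicate block, 217 genes were called in place of 6, and 0 members. In the other glucose pathway lists it called Tpi1, Pgk1 and Slc16a3, all of lower glycolysis and lactate handling (edgeR adjusted p = 0.0309, 0.0420 and 0.0370), which the fit without it did not. The counts for the other lists, and isoform shares from the longest transcript, were added after seeing the data. Depth does not limit the members, but 2 samples a group limit every test.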

Other observations

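Of the enzymes that draw on glucose 6-phosphate and its neighbours, 18 were tested, with a median log2 fold change of 0.23. At an unadjusted edgeR p under 0.05, 8 were higher in K-Ras Mll4-/- samples and 0 were lower, against 11.4% and 10.4% of all genes tested. DESeq2 called 4 genes of the list, all higher, where it called 5.02% of all genes higher. Gfpt1, the entry enzyme of hexosamine synthesis, was at 249 and 335 CPM in K-Ras Mll4-/- and 104.6 and 161.8 CPM in K-Ras samples. Pgm2, a phosphoglucomutase family gene whose symbol was exchanged with that of Pgm1 between mouse annotations, was at 103 and 128.5 CPM against 61.4 and 63.9 CPM. Gys1, a glycogen synthase, was at 72.3 and 94.6 CPM against 42.7 and 54.4 CPM, and Pygb, a glycogen phosphorylase, at 128.5 and 221 CPM against 67.0 and 103.8 CPM. The groups did not overlap for these 4 genes. DESeq2 called Gfpt1, Pgm2 and Gys1 but not Pygb (DESeq2 adjusted p = 0.0538), so its 4 calls are not these 4 genes. With upper-quartile or total-count scaling, 6 genes of the list were higher and 1 was lower at an unadjusted edgeR p under 0.05. With limma-voom or the replicate block, 1 was lower at that threshold. The 8 became 5 without K-Ras Mll4-/- replicate 1, 2 without K-Ras Mll4-/- replicate 2 and 5 without K-Ras replicate 2.

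Of 15 transcripts known to respond to hypoxia outside glycolysis, 9 were higher at an unadjusted edgeR p under 0.05 and 0 were lower. Among all genes tested, 11.4% were higher and 10.4% lower at that threshold. The median log2 fold change of the 15 was 0.59, and DESeq2 called 6 higher, against 5.02% of all genes. Car9, a carbonic anhydrase of hypoxic tumours, was at 17.7 and 14.6 CPM in K-Ras Mll4-/- and 1.41 and 2.63 CPM in K-Ras samples (log2 fold change 2.99, SE 0.38, edgeR adjusted p = 0.128). Egln3, an oxygen-sensing hydroxylase, was at 23.9 and 43.5 CPM against 9.38 and 4.04 CPM, Ndrg1 at 601 and 434 CPM against 143 and 171 CPM, and Ero1l, an oxidase of the endoplasmic reticulum, at 120 and 173 CPM against 56.7 and 56.8 CPM. Ddit4 was lower without overlap, at 53.3 and 35.5 CPM against 58.5 and 102 CPM (log2 fold change -0.85), and Ankrd37, Adm and Bhlhe40 overlapped between the groups. The count of lower genes was 1 in place of 0 with DESeq2, the likelihood ratio test, total-count or upper-quartile scaling, and without either K-Ras replicate.

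Of 13 regulators of glycolytic transcription tested, 1 was higher and 2 were lower at an unadjusted edgeR p under 0.05. These counts were near the shares of all genes tested, 11.4% higher and 10.4% lower. Myc was at 63.8 and 66.04 CPM in K-Ras Mll4-/- and 33.3 and 34.4 CPM in K-Ras samples (log2 fold change 0.94, SE 0.12, edgeR adjusted p = 0.128). Epas1, which encodes HIF-2 alpha and is abundant in endothelium, was at 1113 and 976 CPM against 1731 and 2276 CPM (log2 fold change -0.94, SE 0.23, edgeR adjusted p = 0.168); the endothelial markers were lower in the same samples, and their part in this value was not tested. Hif1a overlapped between the groups, at 375 and 359 CPM against 365 and 265 CPM. Without K-Ras replicate 1, 5 of the 13 were higher, and without either K-Ras Mll4-/- replicate 0 were lower, and 1 without K-Ras replicate 2. Nr1d1, a clock repressor, was at 70.6 and 75.5 CPM against 94.2 and 94.6 CPM.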
